A study of Mus musculus with 29 samples.

Results

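The genes Pdk4, Mlycd, Cpt1a, Cpt1b, Acot1, Acot2, Ucp2 and Ucp3 were followed in mouse hearts as a set of genes that fasting and the peroxisome proliferator-activated receptors (PPARs) are known to induce when muscle turns to burning fat. They were taken by symbol from a table of 20411 genes. All 8 were found, and all 8 were among the 12928 genes that had enough counts to be tested. Every library came from the heart of 1 wildtype BALB/c mouse that had received an adeno-associated virus (AAV) by vein, which carried its cargo under the hepatocyte promoter Tbg. The 4 groups were C26_REV-ERBa (10 mice; REV-ERBα vector, C26 tumour cells placed under the skin 10 days later), C26_GFP (10 mice; GFP vector, C26 tumour), PBS_REV-ERBa (5 mice; REV-ERBα vector, PBS instead of tumour cells) and PBS_GFP (4 mice; GFP vector, PBS). C26 is a mouse colon carcinoma line used to bring on cachexia, the wasting of muscle and fat in cancer, and the series title places the experiment in that setting. The labels do not state how the mice were fed, their age or sex, or the hour of collection.

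In a fed heart, glucose carbon enters the mitochondrion as pyruvate and is committed to oxidation by the pyruvate dehydrogenase complex, while fatty acids enter as acyl carnitines. In fasting, fatty acids released from adipose tissue act as ligands of PPARα, which pairs with RXR on DNA and raises a set of genes that favour fat over glucose. Pdk4 encodes the kinase that switches the pyruvate dehydrogenase complex off. Mlycd encodes the enzyme that breaks down malonyl-CoA, the inhibitor of CPT1, and Cpt1a and Cpt1b encode the liver and muscle forms of CPT1, the gate for long-chain fatty acids into mitochondria. Acot1 and Acot2 encode the cytosolic and mitochondrial thioesterases that split acyl-CoA into free fatty acid and CoA, and Ucp2 and Ucp3 encode carriers of the inner mitochondrial membrane. REV-ERBα, encoded by Nr1d1, is a nuclear receptor of the circadian clock that represses transcription.

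The 8 genes lie on 6 chromosomes, and 2 neighbouring pairs are among them. On mm10, the genome build of the counts, Ucp3 (chr7:100472991-100486432) lies just upstream of Ucp2 (chr7:100493358-100499629), and Acot2 (chr12:83987861-83993875) lies just upstream of Acot1 (chr12:84009502-84017669), all on the plus strand. Pdk4 (chr6:5483351-5496278) and Cpt1b (chr15:89416405-89425862) lie on the minus strand, and Mlycd (chr8:119394892-119411088) and Cpt1a (chr19:3323301-3385733) on the plus strand. The 250 bases before the start site of 4 genes are printed here, read 5′ to 3′ on the strand of the gene, from RefSeq on GRCm38.p6. Ucp3 and Cpt1a are shown because they hold a nuclear receptor hexamer. Pdk4 is shown because it was the most abundant per kilobase of the 7 genes compared so, all but Cpt1b. Acot1 is shown because it had the largest difference with tumour among the 8. Capitals mark AGGTCA, the core hexamer of nuclear receptor sites, or TGACCT, the same hexamer on the opposite strand. The stretches are chr7:100472741-100472990 for Ucp3, chr19:3323051-3323300 for Cpt1a, chr6:5496279-5496528 for Pdk4 and chr12:84009252-84009501 for Acot1.
Ucp3: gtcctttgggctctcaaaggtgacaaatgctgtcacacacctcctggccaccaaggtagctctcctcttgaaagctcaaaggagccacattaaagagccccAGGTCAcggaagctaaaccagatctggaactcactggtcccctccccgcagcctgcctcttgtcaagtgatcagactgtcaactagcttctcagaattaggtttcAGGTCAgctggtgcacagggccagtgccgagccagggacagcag
Cpt1a: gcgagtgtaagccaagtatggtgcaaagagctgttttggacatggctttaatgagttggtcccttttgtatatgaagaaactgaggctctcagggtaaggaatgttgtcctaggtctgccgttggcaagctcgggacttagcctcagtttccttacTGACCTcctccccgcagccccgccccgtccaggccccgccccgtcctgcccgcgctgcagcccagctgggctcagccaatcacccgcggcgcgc
Pdk4: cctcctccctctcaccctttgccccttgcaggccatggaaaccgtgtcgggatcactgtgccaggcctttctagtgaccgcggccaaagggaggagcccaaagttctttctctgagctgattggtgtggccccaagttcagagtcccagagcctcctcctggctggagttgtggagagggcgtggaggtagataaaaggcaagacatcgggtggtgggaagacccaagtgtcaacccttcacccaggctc
Acot1: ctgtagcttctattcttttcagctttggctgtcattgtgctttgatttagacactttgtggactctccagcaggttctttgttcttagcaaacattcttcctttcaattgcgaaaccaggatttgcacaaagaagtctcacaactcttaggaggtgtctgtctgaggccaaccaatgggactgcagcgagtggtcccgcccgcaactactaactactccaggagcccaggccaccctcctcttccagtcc
Promoter sequences were matched for 7 of the 8 genes, all but Cpt1b. Both strands were searched for AGGTCA, for 2 copies of it spaced by 1 base (the direct repeat that PPAR and RXR bind), for the core of REV-ERB and ROR elements, for the FOXO site (TGTTTAC) and for its insulin response variant (TGTTTTG). The hexamer began 149 and 44 bases before the start of Ucp3, and TGACCT began 94 bases before the start of Cpt1a. TGTTTTG began 219 bases before the start of Cpt1a. None of the 5 motifs occurred in these 250 bases of Pdk4, Ucp2, Acot1, Acot2 or Mlycd. Among 32851 mouse promoters of the same length, 14.0% held the hexamer, 5.56% the FOXO variant, 3.17% the FOXO site, 0.493% the REV-ERB core and 0.0335% the direct repeat. The last 2 overlap the hexamer in their letters. A match here is only a match of letters.

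The libraries held 3207497 to 16853646 counts each. Of the 29, 5 exceeded 10000000 counts, namely C26_GFP replicates 4, 5 and 6 and PBS_GFP replicates 1 and 2. Atrial markers were high in 8 libraries, 3 of C26_REV-ERBa, 3 of C26_GFP, 1 of PBS_REV-ERBa and 1 of PBS_GFP. Cardiomyocyte markers were abundant everywhere, with a summed level of 44787 to 65965 CPM, a gene's share of the scaled total count of its library. No 2 libraries agreed within sampling noise (the lowest chi-square per degree of freedom was 2.62 over 406 pairs). Nr1d1 in the heart averaged 166 ± 42.9 CPM in C26_REV-ERBa hearts, 137 ± 41.4 CPM in C26_GFP hearts, 199 ± 33.8 CPM in PBS_REV-ERBa hearts and 195 ± 39.5 CPM in PBS_GFP hearts (SD). Its difference did not pass for C26_REV-ERBa over C26_GFP (log2 fold change 0.28 ± 0.16 SE, edgeR adjusted p = 0.288) nor for PBS_REV-ERBa over PBS_GFP (0.03 ± 0.24, adjusted p = 1). The vector is driven in hepatocytes, so Nr1d1 in the heart does not check it.

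Levels were set side by side per kilobase of counted sequence for 7 of the 8 genes, and Pdk4 was the most abundant of the 7 in every group. It stood at 801 ± 436 CPM per kilobase in C26_REV-ERBa hearts, 963 ± 603 in C26_GFP hearts, 480 ± 180 in PBS_REV-ERBa hearts and 497 ± 75.5 in PBS_GFP hearts (SD; n = 10, 10, 5 and 4). Mlycd and Acot2 came next, at 160 ± 23.5 and 149 ± 32.6 CPM per kilobase in C26_REV-ERBa hearts and at 136 ± 7.61 and 115 ± 13.2 in PBS_GFP hearts. Ucp3 followed at 73.8 ± 30.7 CPM per kilobase in C26_REV-ERBa hearts and 58.1 ± 13.3 in PBS_GFP hearts. At the low end, Ucp2, Acot1 and Cpt1a had SD ranges that overlapped between neighbours in PBS_GFP hearts, at 26.9 ± 2.18, 22.5 ± 4.71 and 21.0 ± 3.74 CPM per kilobase. In C26_GFP hearts Acot1 stood at 95.9 ± 45.7 CPM per kilobase, above Ucp3 at 50.1 ± 34.6, Ucp2 at 47.4 ± 11.3 and Cpt1a at 28.5 ± 10.2. The SD ranges of neighbours in this order overlapped in that group, as did those of Mlycd and Acot1. Cpt1b was left out because the deposited length of its counted sequence is only 150 bases.

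**Figure D1:**
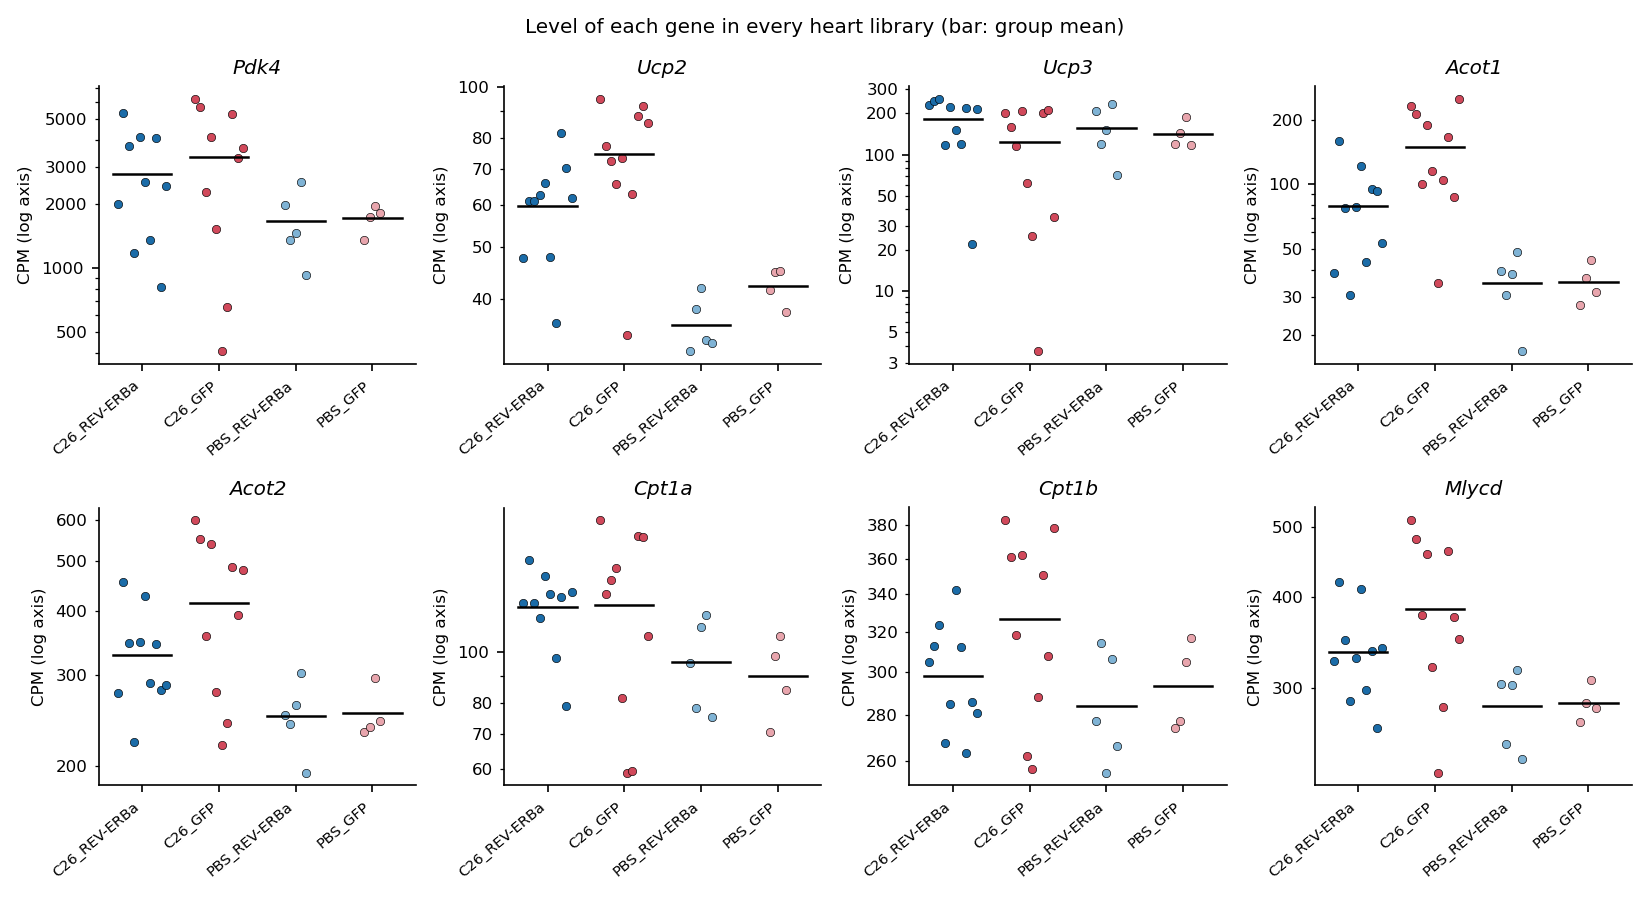
Level of each of the 8 genes in every heart, in CPM on a log axis, by group (C26_REV-ERBa, C26_GFP, PBS_REV-ERBa, PBS_GFP); points are hearts and bars are group means. The group mean of every gene but Ucp3 is highest in C26_GFP hearts, for Cpt1a barely (123 against 121 CPM in C26_REV-ERBa hearts). Ucp3 reaches down to 3.64 CPM in C26_GFP, and each gene's groups overlap.

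Some counts cannot be given to 1 gene with certainty. Of all windows of 50 bases in the Acot1 transcript, 23.7% also occur in the Acot2 transcript, and 24.5% of those of Acot2 occur in Acot1, the longest shared run being 273 bases. With any other gene, such as Acot5, 33.6% of Acot1 windows and 27.7% of Acot2 windows are shared. Levels of Acot1 and Acot2 are therefore uncertain to the extent that reads were split or dropped there. For Cpt1b, 93% of windows are shared with the overlapping readthrough gene Gm44502. The antisense gene Gm10603 overlaps the 5′ end of Ucp3, and no source used here states how strand entered the counting. Pdk4 shared 1.43% of its windows and Ucp2 6.5%, while Ucp3, Cpt1a and Mlycd shared none. The windows come from whole transcripts, which can be longer than the counted sequence. For Ucp2 the lengths are 3988 and 1576 bases, and for Acot1 2272 and 1558. Shares over the counted bases alone may differ.

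The tumour comparison asks what the hearts of C26_GFP mice showed against those of PBS_GFP mice. Acot1, Ucp2, Acot2 and Mlycd rose, by 4.32-fold, 1.75-fold, 1.64-fold and 1.35-fold, while Pdk4, Cpt1a, Cpt1b and Ucp3 did not pass the test. So 4 of the 8 genes were called higher and 0 lower, where 14.2% of all tested genes were called higher and 14% lower (28.2% in either direction). The median log2 fold change of the 8 was 0.58, and that of all tested genes was -2.85e-05. Genes were called at an adjusted p under 0.05 from edgeR's quasi-likelihood test over all 12928 genes. In pieces of whole heart, fewer cells of a type and less RNA per cell cannot be told apart.

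Pdk4 averaged 3324 ± 2081 CPM in C26_GFP hearts and 1716 ± 261 CPM in PBS_GFP hearts (SD), and the difference did not pass. In C26_GFP hearts it ran from 408 to 6253 CPM with a median of 3474, against 1354, 1736, 1968 and 1807 CPM in PBS_GFP hearts. In 7 of the 10 C26_GFP hearts Pdk4 lay above every PBS_GFP heart, and in 2 it lay below all of them. The log2 fold change was 0.95 ± 0.51 (SE; 95% interval -0.09 to 2.0; edgeR adjusted p = 0.167).

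Of the genes at the carnitine gate, Mlycd passed and the CPT1 genes did not. Mlycd ran from 229 to 512 CPM in C26_GFP hearts with a median of 377, against 269, 285, 307 and 281 CPM in PBS_GFP hearts. It was above every PBS_GFP heart in 8 of 10 C26_GFP hearts and below all of them in 1. Its log2 fold change was 0.43 ± 0.15 (edgeR adjusted p = 0.0302), and the call was lost without PBS_GFP replicate 1, 2 or 4 (adjusted p = 0.0866, 0.0666 and 0.0697). It was also lost with only the compared groups in the fit (edgeR adjusted p = 0.0672), without the 5 deepest libraries (0.0770), without the 8 libraries high in atrial markers (0.0624) and with depth as a covariate (0.0595), while the Mlycd log2 fold change stayed between 0.38 and 0.57 over the 14 alternatives. Cpt1a ran from 59.1 to 178 CPM in C26_GFP hearts with a median of 133, against 70.5, 98.3, 107 and 84.6 CPM in PBS_GFP hearts. Its log2 fold change of 0.45 ± 0.23 did not pass (95% interval -0.02 to 0.91; edgeR adjusted p = 0.143), but passed without C26_GFP replicate 6 (0.53 ± 0.20, adjusted p = 0.0467). In C26_GFP hearts Cpt1b had the smallest spread of the 8 genes on the log2 scale. It ran from 257 to 383 CPM there with a median of 335, against 274, 277, 305 and 317 CPM in PBS_GFP hearts. The groups overlapped, and the log2 fold change was 0.16 ± 0.09 (95% interval -0.03 to 0.35; edgeR adjusted p = 0.210).

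Among the 8 genes, the thioesterase Acot1 had the largest log2 fold change with tumour. In C26_GFP hearts Acot1 ran from 34.8 to 251 CPM with a median of 141, against 27.4, 36.6, 44.5 and 31.7 CPM in PBS_GFP hearts. In 9 of 10 C26_GFP hearts it lay above every PBS_GFP heart, and the remaining heart lay within their range. The log2 fold change was 2.11 ± 0.43 (95% interval 1.23 to 2.99; edgeR adjusted p = 0.000607), and it passed in each of 14 fits that left out 1 library. Acot2, the mitochondrial neighbour, ran from 219 to 600.0 CPM in C26_GFP hearts with a median of 437, against 233, 238, 296 and 244 CPM in PBS_GFP hearts. It was above every PBS_GFP heart in 7 of 10 and below all of them in 1, with a log2 fold change of 0.72 ± 0.21 (edgeR adjusted p = 0.0118). Without the 5 deepest libraries the value was 0.72 and the call was lost (adjusted p = 0.0577). Within a heart, the ratio of Acot1 to Acot2 CPM was 0.350 ± 0.106 in C26_GFP hearts and 0.138 ± 0.0172 in PBS_GFP hearts (SD). The groups did not overlap in this ratio, the lowest being 0.159 in C26_GFP hearts and the highest 0.154 in PBS_GFP hearts, and it was not tested.

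Of the mitochondrial carriers, Ucp2 passed and Ucp3 did not. Ucp2 ran from 34.3 to 94.9 CPM in C26_GFP hearts with a median of 75.5, against 41.6, 45.0, 45.0 and 37.8 CPM in PBS_GFP hearts. It was above every PBS_GFP heart in 9 of 10 C26_GFP hearts, and the exception, replicate 6, was below all of them. The log2 fold change was 0.81 ± 0.19 (edgeR adjusted p = 0.00162) and passed in each of 14 fits that left out 1 library. Macrophages also express Ucp2. Of 9 macrophage markers 3 rose and 0 fell, where 14.2% of all tested genes were called higher. Their summed level was 365 to 631 CPM in C26_GFP hearts and 320 to 404 CPM in PBS_GFP hearts. Of 5 fibroblast markers 2 rose and 0 fell. The part of these cells in the Ucp2 difference was not tested. Ucp3 ran from 3.64 to 213 CPM in C26_GFP hearts with a median of 138, against 120, 144, 188 and 118 CPM in PBS_GFP hearts. Of the C26_GFP hearts, 4 lay above every PBS_GFP heart and 5 below all of them. C26_GFP replicates 7, 6, 10 and 5 had 3.64, 25.4, 34.7 and 61.5 CPM. The log2 fold change of Ucp3 was -0.21 ± 0.54 (95% interval -1.32 to 0.89; edgeR adjusted p = 0.810).

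**Figure D2:**
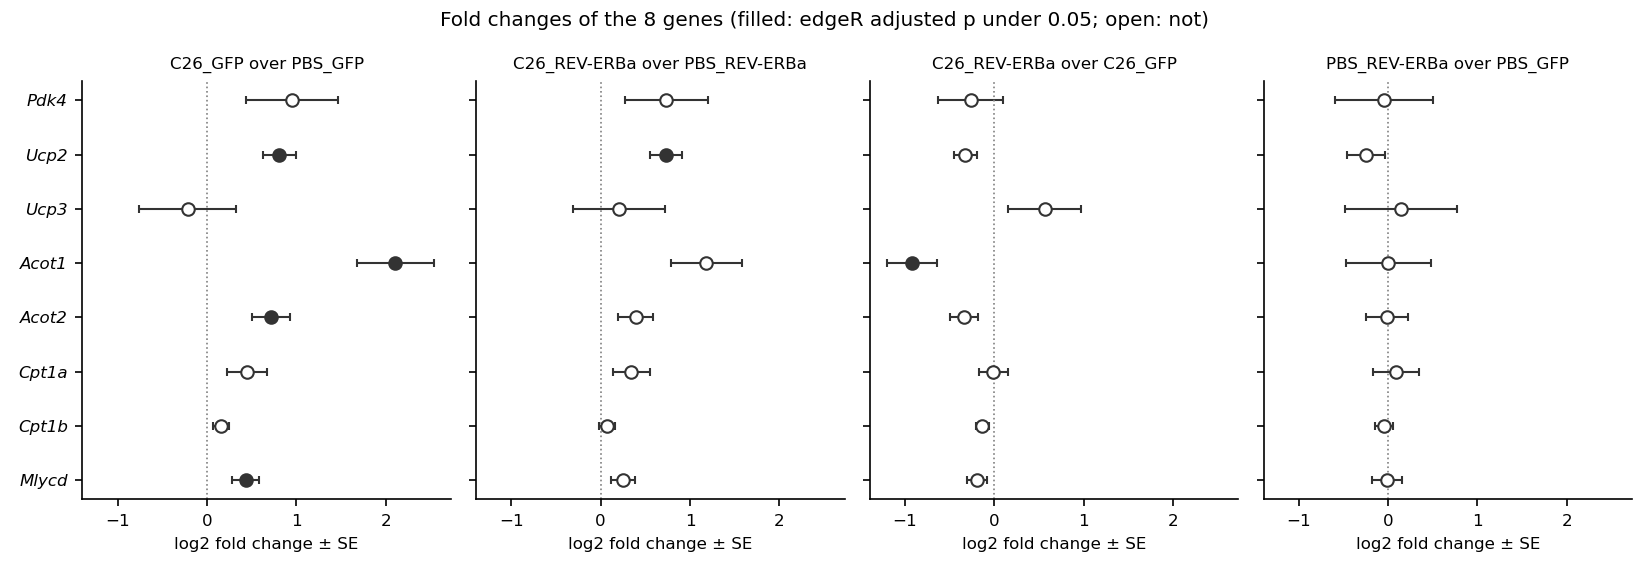
Log2 fold change of each gene with its standard error in 4 comparisons, filled where the edgeR adjusted p was under 0.05. With the GFP vector 4 genes are filled for tumour over PBS, with the REV-ERBα vector only Ucp2 is, and for the vector comparison only Acot1 in tumour-bearing hearts is.

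The vector comparison among tumour-bearing mice set C26_REV-ERBa hearts against C26_GFP hearts. Acot1 fell, to 78.9 ± 40.1 CPM in C26_REV-ERBa hearts against 149 ± 71.2 CPM in C26_GFP hearts (SD, n = 10 each), and the other 7 genes did not pass. Of all tested genes 3.45% were called lower, 3.75% higher and 7.2% in either direction (485 higher and 446 lower; 561 and 351 with upper-quartile scaling). The median log2 fold change of the 8 genes was -0.23, and that of all tested genes 0.00396. Since the C26_GFP hearts are also the tumour group of the previous comparison, a high C26_GFP level enters both.

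Acot1 ran from 30.7 to 159 CPM in C26_REV-ERBa hearts with a median of 77.8, against 34.8 to 251 CPM with a median of 141 in C26_GFP hearts. Of the C26_REV-ERBa hearts, 1 lay below every C26_GFP heart and 0 above all of them. The log2 fold change was -0.92 ± 0.28 (95% interval -1.5 to -0.34; 0.528-fold; edgeR adjusted p = 0.0451), close to the threshold. It no longer passed in 14 of 20 fits that left out 1 library (C26_GFP replicate 1, 2, 4, 5, 7, 8 or 10, or C26_REV-ERBa replicate 1, 3, 4, 5, 7, 8 or 10), where the adjusted p over all 20 ran from 0.00809 to 0.105 and the log2 fold change from -1.10 to -0.81. The Acot1 to Acot2 ratio was 0.230 ± 0.0776 in C26_REV-ERBa hearts and 0.350 ± 0.106 in C26_GFP hearts (SD). Acot2 itself averaged 328 ± 71.6 CPM in C26_REV-ERBa hearts and 415 ± 137 CPM in C26_GFP hearts, with a log2 fold change of -0.34 ± 0.15 (edgeR adjusted p = 0.169).

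Ucp2 averaged 59.6 ± 12.9 CPM in C26_REV-ERBa hearts and 74.7 ± 17.9 CPM in C26_GFP hearts. Its log2 fold change of -0.33 ± 0.13 did not pass (95% interval -0.60 to -0.05; edgeR adjusted p = 0.126), but passed without C26_GFP replicate 6, the low Ucp2 heart (-0.41 ± 0.10, adjusted p = 0.0102). Of 9 macrophage markers 2 were lower and 0 higher, where 3.45% of all tested genes were called lower. Their summed level was 336 to 457 CPM in C26_REV-ERBa hearts and 365 to 631 CPM in C26_GFP hearts. Of 5 fibroblast markers 1 was lower and 0 higher. The part of these cells was not tested. Ucp3 ran from 22.2 to 257 CPM in C26_REV-ERBa hearts with a median of 218, against 3.64 to 213 CPM with a median of 138 in C26_GFP hearts. Ucp3 in 6 of the 10 C26_REV-ERBa hearts lay above every C26_GFP heart, yet the spread was wide and the log2 fold change of 0.56 ± 0.41 did not pass (95% interval -0.28 to 1.40; edgeR adjusted p = 0.419).

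Pdk4 ran from 819 to 5380 CPM in C26_REV-ERBa hearts with a median of 2478, against 408 to 6253 CPM with a median of 3474 in C26_GFP hearts. Every C26_REV-ERBa heart lay within the C26_GFP range, and the log2 fold change was -0.27 ± 0.37 (95% interval -1.02 to 0.48; edgeR adjusted p = 0.706). Mlycd averaged 336 ± 49.4 CPM in C26_REV-ERBa hearts and 385 ± 92.9 CPM in C26_GFP hearts (log2 fold change -0.19 ± 0.11, edgeR adjusted p = 0.281). Cpt1b averaged 298 ± 25.5 CPM in C26_REV-ERBa hearts and 327 ± 47.0 CPM in C26_GFP hearts (-0.13 ± 0.07, adjusted p = 0.237). Cpt1a averaged 121 ± 20.2 CPM in C26_REV-ERBa hearts and 123 ± 43.8 CPM in C26_GFP hearts (-0.01 ± 0.17, edgeR adjusted p = 0.982).

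Without a tumour, the REV-ERBα vector moved none of the 8 genes past the threshold. By edgeR, 0% of the 12928 genes were called for PBS_REV-ERBa over PBS_GFP, 530 had an unadjusted p under 0.05, and DESeq2 and limma called 1 gene each. Acot1 had 39.6, 30.4, 38.3, 48.5 and 16.7 CPM in PBS_REV-ERBa hearts, against 27.4, 36.6, 44.5 and 31.7 CPM in PBS_GFP hearts. Ucp2 had 31.9, 38.2, 42.0, 33.5 and 33.1 CPM in PBS_REV-ERBa hearts, against 41.6, 45.0, 45.0 and 37.8 CPM in PBS_GFP hearts, which overlap (log2 fold change -0.25 ± 0.21, edgeR adjusted p = 1). Pdk4 had 1988, 1362, 1467, 2547 and 930 CPM in PBS_REV-ERBa hearts, wider than the 1354 to 1968 CPM of PBS_GFP hearts. Ucp3 had 209, 119, 150, 235 and 70.6 CPM in PBS_REV-ERBa hearts, around the 118 to 188 CPM of PBS_GFP hearts.

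With the REV-ERBα vector on both sides, Ucp2 was the 1 gene of the 8 that rose with tumour. By edgeR 4.05% of all tested genes were called higher, 3.19% lower and 7.23% in either direction for C26_REV-ERBa over PBS_REV-ERBa. Ucp2 averaged 59.6 ± 12.9 CPM in C26_REV-ERBa hearts and 35.8 ± 4.25 CPM in PBS_REV-ERBa hearts, a log2 fold change of 0.73 ± 0.18 (edgeR adjusted p = 0.0116), and 9 of 10 C26_REV-ERBa hearts lay above every PBS_REV-ERBa heart. Without the 8 libraries high in atrial markers the value was 0.74 and the call was lost (adjusted p = 0.0562). Of the 9 macrophage markers 3 rose as well and 0 fell, where 4.05% of all tested genes were called higher. Their summed level was 336 to 457 CPM in C26_REV-ERBa hearts and 258 to 360.2 CPM in PBS_REV-ERBa hearts. Of 5 fibroblast markers 1 rose and 0 fell. The part of these cells was not tested. Acot1 averaged 78.9 ± 40.1 CPM in C26_REV-ERBa hearts and 34.7 ± 11.9 CPM in PBS_REV-ERBa hearts, and its log2 fold change of 1.18 ± 0.39 did not pass (95% interval 0.38 to 1.99; edgeR adjusted p = 0.0630). It passed without C26_REV-ERBa replicate 1, 4 or 7 (adjusted p = 0.0415, 0.0344 and 0.0419). The fitted log2 fold changes were 0.74 ± 0.46 for Pdk4, 0.39 ± 0.19 for Acot2, 0.34 ± 0.21 for Cpt1a, 0.25 ± 0.14 for Mlycd, 0.20 ± 0.51 for Ucp3 and 0.07 ± 0.09 for Cpt1b, with edgeR adjusted p between 0.219 and 0.852.

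Whether the tumour difference itself depended on the vector was tested as an interaction, and it passed for 0 of the 8 genes. Over all genes edgeR called 0 (0%), with 1357 at an unadjusted p under 0.05, while DESeq2 called 9 and limma 4. For Acot1 the interaction was -0.93 ± 0.56 on the log2 scale (95% interval -2.06 to 0.21; edgeR adjusted p = 0.553). It was -0.33 ± 0.28 for Acot2 (adjusted p = 0.699), 0.42 ± 0.74 for Ucp3 (adjusted p = 0.887) and -0.22 ± 0.66 for Pdk4 (adjusted p = 0.950). Passing with the GFP vector and missing with the REV-ERBα vector is thus no shown difference for Acot1, Acot2 or Mlycd.

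Most of the 8 genes varied more among hearts of 1 group than the median gene did. In C26_GFP hearts the SD of log2 CPM was 1.88 for Ucp3, 1.35 for Pdk4 and 0.86 for Acot1, where the median gene of at least 5 CPM had 0.165. Of all such genes 99.9% had a smaller SD than Ucp3, 99.8% a smaller SD than Pdk4 and 99.4% a smaller SD than Acot1. The SD of Pdk4 was 0.89 in C26_REV-ERBa, 1.35 in C26_GFP, 0.55 in PBS_REV-ERBa and 0.23 in PBS_GFP hearts. That of Ucp3 was 1.06, 1.88, 0.69 and 0.31 in the same groups. Cpt1b stood at the other end, at 0.12, 0.21, 0.13 and 0.10, though in PBS_GFP hearts Mlycd was lower, at 0.08. The difference in spread between groups was not tested.

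**Figure D3:**
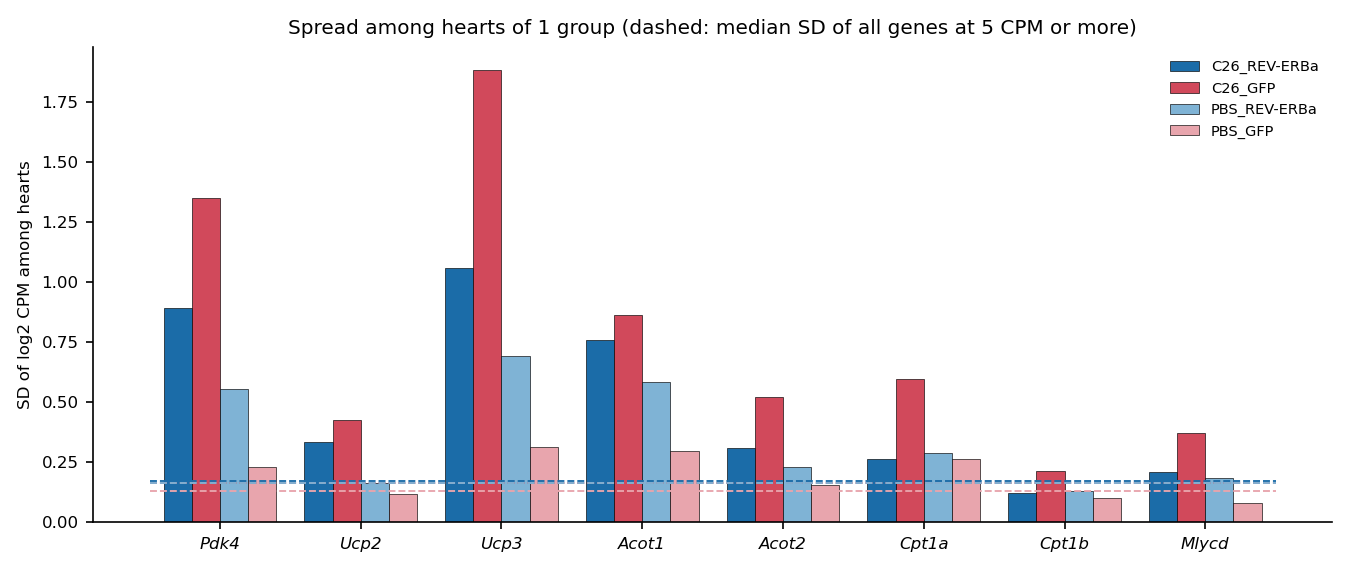
SD of log2 CPM of each gene among the hearts of each group, with dashed lines at the median SD of all genes of at least 5 CPM. Ucp3 and Pdk4 reach 1.88 and 1.35 in C26_GFP hearts, and Cpt1b stays near the dashed lines.

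The variation was shared. After each heart's log2 CPM was set against its group mean, 24 of the 28 pairs of genes were correlated at an adjusted p under 0.05 by Pearson's r, all positively, and 21 passed by Spearman's rho as well (29 hearts, two-sided, 100000 permutations within groups, Benjamini-Hochberg adjusted over 28 pairs). Over the 28 pairs r ran from 0.194 to 0.916 with a median of 0.674. The share of correlated pairs among other genes in these hearts was not computed. Whether the count of 24 is particular to this set of genes was therefore not tested. Pdk4 and Mlycd gave r = 0.907 and rho = 0.849 (permutation adjusted p = 4e-05 and 3.5e-05), and r = 0.844 without the 2 hearts farthest from the median of Pdk4. Pdk4 and Acot2 gave r = 0.900 and rho = 0.914 (permutation adjusted p = 4e-05 and 3.5e-05), and 0.842 without the 2 farthest. Ucp3 and Cpt1a gave r = 0.873 and rho = 0.872 (permutation adjusted p = 4e-05 and 3.5e-05), and 0.862 without the 2 farthest. Those adjusted values come from an unadjusted p of 1e-05, the smallest the permutations can give. Without the 5 deepest libraries these pairs gave r = 0.856, 0.870 and 0.935.

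Ucp2 followed the others least. Its r with Pdk4 was 0.593 and its rho 0.451 (permutation adjusted p = 0.00981 and 0.0423), but r was 0.341 without the 2 farthest hearts, so the relation rests in part on those. With Acot1 its r was 0.559 and its rho 0.375 (permutation adjusted p = 0.0136 and 0.0823), and r was 0.243 without the 2 farthest. With Mlycd its r was 0.468 and its rho 0.240 (permutation adjusted p = 0.0436 and 0.259), and r was 0.105 without the 2 farthest. The pairs that did not pass by r were Ucp2 with Ucp3 (r = 0.310, rho = 0.272), Ucp2 with Cpt1b (r = 0.194, rho = 0.0635), Ucp3 with Acot1 (r = 0.298, rho = 0.360) and Ucp3 with Cpt1b (r = 0.406, rho = 0.437). Their permutation adjusted p of r were 0.201, 0.435, 0.201 and 0.0981, and those of rho 0.212, 0.762, 0.0934 and 0.0553. Acot1 and Acot2, which share sequence and may share reads, gave r = 0.854 and rho = 0.863 (permutation adjusted p = 4e-05 and 3.5e-05; r = 0.786 without the 2 farthest). Within the 10 C26_REV-ERBa hearts alone r over the 28 pairs ran from -0.648 to 0.900 with a median of 0.455. Within the 10 C26_GFP hearts it ran from 0.368 to 0.965 with a median of 0.813.

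The same hearts were high or low in many genes at once. C26_GFP replicate 6 was the lowest of its group in 7 of the 8 genes, all but Ucp3, which was lowest in replicate 7. C26_GFP replicate 1 was the highest of its group in 6. C26_REV-ERBa replicate 2 was highest in Pdk4, Acot1, Acot2, Cpt1a and Mlycd, and replicate 9 was lowest in Pdk4, Ucp3, Cpt1a and Mlycd. Replicate 9 had a mean adipocyte marker level of 7.13 log2 CPM and an atrial one of 7.23, and C26_GFP replicate 6 had 2.26 and 0.548, with 14312672 counts. Summed adipocyte markers were 307 to 903 CPM in C26_REV-ERBa hearts, 251 to 499 in C26_GFP, 246 to 355 in PBS_REV-ERBa and 277 to 290 in PBS_GFP hearts. For C26_GFP over PBS_GFP, 1 of the 6 adipocyte markers tested rose, near the 14.2% of all tested genes called higher. The part of these markers and of depth in the shared variation was not tested.

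**Figure D4:**
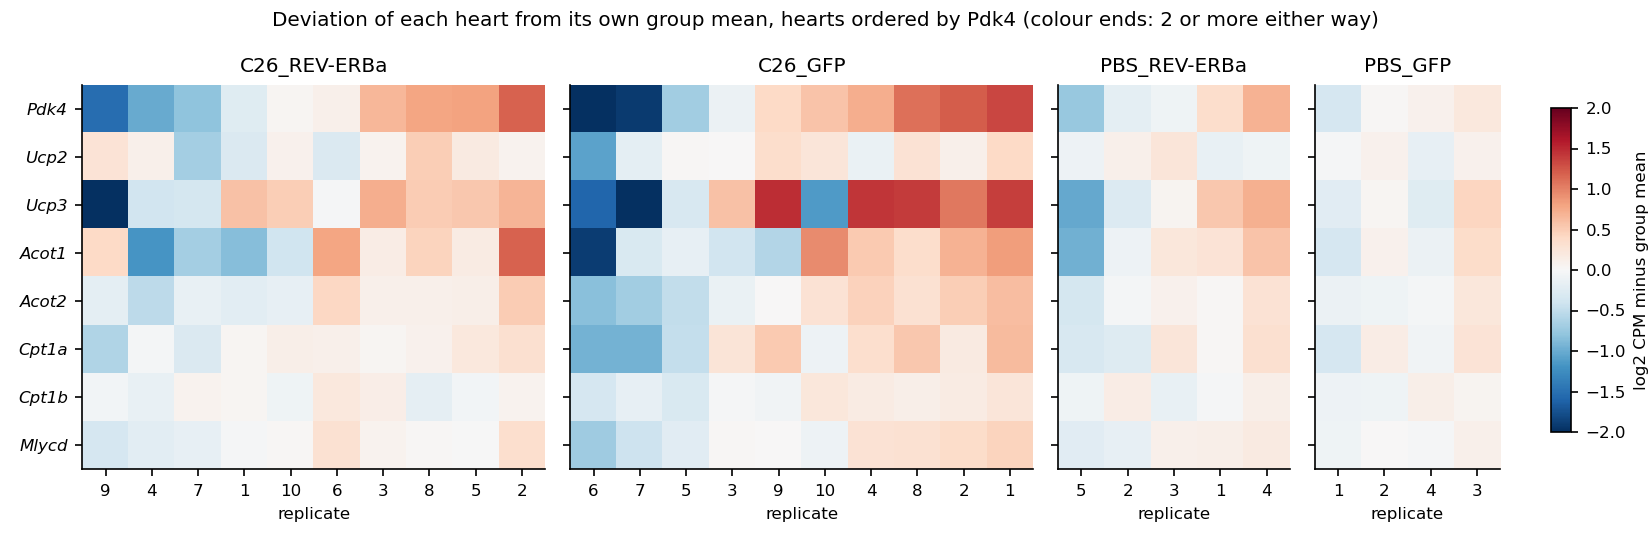
Heat map of each heart's log2 CPM minus its group mean for the 8 genes, with hearts ordered by Pdk4 within each group and colours ending at 2 either way. Hearts low in Pdk4 are low in most of the other genes, and Ucp3 reaches the lowest values in C26_GFP hearts.

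Across 10757 genes of at least 5 CPM, the genes whose deviations were most like those of Pdk4 over the 29 hearts were Plin2 (r = 0.893), Chrna2 (0.888), Plin5 (0.883), Ehhadh (0.881) and Hsd17b11 (0.879). Plin2 and Plin5 encode lipid droplet coat proteins, Ehhadh a peroxisomal enzyme of fatty acid oxidation, and Chrna2 a nicotinic receptor subunit. Those most like Ucp2 were Timp3 (0.743), Nrxn2 (0.699), Hgh1 (0.684), Fam172a (0.678) and Ick (0.672). The likeness is a description. Depth and atrial marker level differed between these libraries, and their part in the likeness was not tested.

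Genes that work beside the 8 were counted in lists. Other PPAR and fasting targets had 25 of 31 genes tested, of which 10 rose and 0 fell in C26_GFP over PBS_GFP hearts (median log2 fold change 0.26), where 14.2% of all tested genes were called higher and 14% lower. Plin4, a lipid droplet coat, averaged 1136 ± 253 CPM in C26_GFP hearts and 562 ± 39.7 CPM in PBS_GFP hearts (SD; log2 fold change 1.02 ± 0.18, edgeR adjusted p = 0.000104). Slc27a1, a fatty acid transporter, rose by 0.93 ± 0.16 and Lpl, which frees fatty acids from circulating lipid, by 0.68 ± 0.13, both on the log2 scale. The count was 6 without PBS_GFP replicate 1, 2 or 4, 5 without the 5 deepest libraries and 6 with depth as a covariate. For C26_REV-ERBa over C26_GFP 0 rose and 2 fell by edgeR, near the 7.2% of all tested genes called in that comparison, and 6 of the 25 had an unadjusted p under 0.05. DESeq2 called 3 and limma 4. Plin4 fell to 770 ± 171 CPM in C26_REV-ERBa hearts, against 1136 ± 253 CPM in C26_GFP hearts (-0.56 ± 0.13, edgeR adjusted p = 0.0131). The count was 1 without C26_REV-ERBa replicate 7 or C26_GFP replicate 10, and 4 without C26_GFP replicate 6 or C26_REV-ERBa replicate 2. For C26_REV-ERBa over PBS_REV-ERBa 5 of the 25 rose and 0 fell by edgeR (median log2 fold change 0.25). Of all tested genes 4.05% were called higher and 3.19% lower there. This count of 5 ran from 2 to 7 when 1 library was left out. The interaction passed for 0 of the 25 by edgeR, DESeq2 and limma.

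The pyruvate dehydrogenase axis, on which the kinase PDK4 acts, was mostly lower with tumour in mice with the GFP vector. Of its 13 genes, 8 fell and 1 (Pdk2, another kinase) rose in C26_GFP over PBS_GFP hearts, with a median log2 fold change of -0.36, against 14% of all tested genes called lower. Pdhb, a subunit of the E1 enzyme, ran from 258 to 329 CPM in C26_GFP hearts, against 388 to 442 CPM in PBS_GFP hearts, without overlap (log2 fold change -0.51 ± 0.08, edgeR adjusted p = 2.08e-05). Dlat, Dld and Pdhx, which encode the E2 core, the E3 enzyme and its binding protein, fell by 0.45, 0.37 and 0.44 on the log2 scale. The phosphatase genes Pdp1 and Pdp2, whose products switch the complex back on, fell by 0.36 and 0.62. In C26_REV-ERBa over C26_GFP hearts 5 of 13 rose and 0 fell, against 3.75% of all tested genes called higher. Pdhb averaged 347 ± 34.6 CPM in C26_REV-ERBa hearts and 295 ± 23.4 CPM in C26_GFP hearts (0.24 ± 0.06, edgeR adjusted p = 0.0199), and Dld 283 ± 28.7 and 233 ± 12.3 CPM (0.28 ± 0.05, adjusted p = 0.00655). Pdp1 and Pdp2 rose by 0.39 and 0.47, and Dlat by 0.24 (edgeR adjusted p = 0.0403). The Dlat call was lost in 14 of 20 fits that left out 1 library, where its highest adjusted p was 0.0857. It was also lost with no filter on low counts (edgeR adjusted p = 0.0594), a replicate block (0.0761), only the compared groups (0.0833) and without the 8 libraries high in atrial markers (0.0663). The count was 3 without C26_REV-ERBa replicate 7 and 3 with a replicate block. For C26_REV-ERBa over PBS_REV-ERBa 0 of the 13 passed by edgeR (median log2 fold change -0.06), 4 had an unadjusted p under 0.05, and DESeq2 called 0 and limma 1. In that comparison 1 passed without PBS_REV-ERBa replicate 3 or C26_REV-ERBa replicate 4 or 7, without the 8 libraries high in atrial markers and with the adipocyte marker level as a covariate. The interaction passed for 0 of the 13 by edgeR, with 6 at an unadjusted p under 0.05, while DESeq2 and limma called 1 each. Of 10 cardiomyocyte markers 6 fell and 1 rose in C26_GFP over PBS_GFP hearts, where 14% of all tested genes were called lower and 14.2% higher. In C26_REV-ERBa over C26_GFP hearts 1 of the 10 rose and 0 fell, where 3.75% of all tested genes were called higher. The summed level of these markers was 47489 to 61358 CPM in C26_REV-ERBa and 44787 to 57802 in C26_GFP hearts. It was 55448 to 65965 CPM in PBS_REV-ERBa and 58397 to 62500 in PBS_GFP hearts. Their part was not tested.

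**Figure D5:**
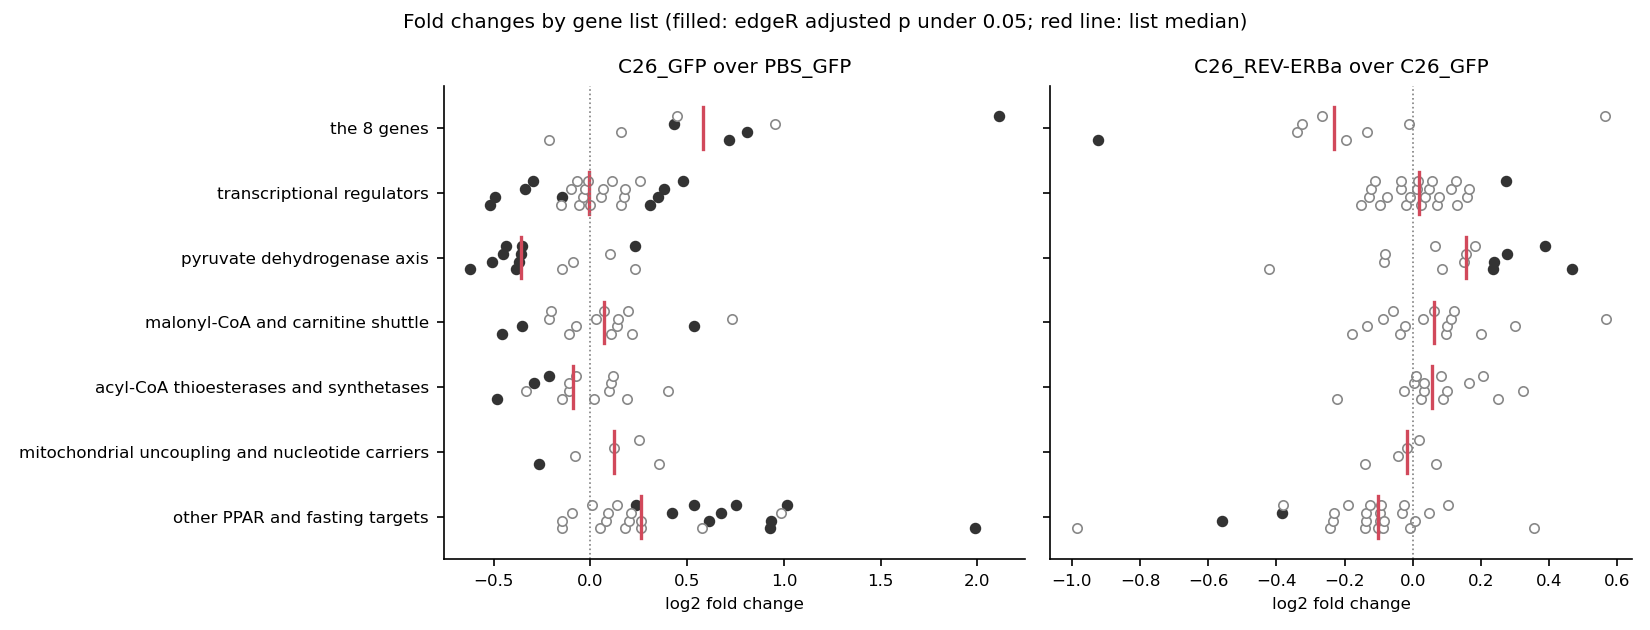
Log2 fold changes of the listed genes, by list, for tumour with the GFP vector (C26_GFP over PBS_GFP) and for the vector in tumour-bearing mice (C26_REV-ERBa over C26_GFP), with list medians in red. Medians for the pyruvate dehydrogenase axis are -0.36 and 0.16, and for other PPAR and fasting targets 0.26 and -0.10.

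No difference between lists was tested. In the malonyl-CoA and carnitine shuttle list, 1 of 15 genes rose and 2 fell in C26_GFP over PBS_GFP hearts, where 14.2% of all tested genes were called higher and 14% lower. Acacb, which makes the malonyl-CoA that blocks CPT1, averaged 619 ± 90.0 CPM in C26_GFP hearts and 427 ± 17.0 CPM in PBS_GFP hearts (log2 fold change 0.54 ± 0.10, edgeR adjusted p = 0.000333). Acaca, which makes cytosolic malonyl-CoA, averaged 17.1 ± 4.91 CPM in C26_GFP hearts and 9.79 ± 2.93 CPM in PBS_GFP hearts, and its log2 fold change of 0.73 ± 0.28 did not pass (edgeR adjusted p = 0.0515). It passed in 8 of 14 alternatives, where the adjusted p ran from 0.00411 to 0.173, and without C26_GFP replicate 1, 2 or 6 or PBS_GFP replicate 2. Prkaa2 and Prkab2, subunits of the AMP-activated kinase that inhibits the product of Acacb, fell by 0.46 and 0.36 on the log2 scale. Without the 5 deepest libraries the Prkab2 value was -0.24 and the call was lost (edgeR adjusted p = 0.118). Among regulators, 4 of 24 rose and 5 fell, against 14.2% higher and 14% lower over all tested genes. Nr3c1, the glucocorticoid receptor, averaged 169 ± 24.7 CPM in C26_GFP hearts and 242 ± 3.03 CPM in PBS_GFP hearts (-0.52 ± 0.09, edgeR adjusted p = 5.97e-05), and Klf15, a fasting-induced factor, rose by 0.48 ± 0.13 (adjusted p = 0.00485; with a replicate block 0.36 and no longer called, edgeR adjusted p = 0.0746). Esrrb and Sirt1, a nuclear receptor and a deacetylase, rose by 0.38 and 0.35, and Esrrb was not called without the 5 deepest libraries (0.37, edgeR adjusted p = 0.0648). Ppara itself fell by 0.34 on the log2 scale (edgeR adjusted p = 0.0168). The regulator count was 5 without PBS_GFP replicate 1 and 4 without the 5 deepest libraries. In C26_REV-ERBa over C26_GFP hearts Nr3c1 was the 1 of 24 regulators that passed, higher by 0.27 ± 0.07 (edgeR adjusted p = 0.0168). This count was near the share over all tested genes, of which 3.75% were called higher and 3.45% lower. DESeq2 called 1 regulator and limma 3 in C26_REV-ERBa over C26_GFP hearts. Of the malonyl-CoA list 0 genes passed by edgeR in that comparison and 4 had an unadjusted p under 0.05, while DESeq2 called 1 and limma 2. The edgeR count was 3 without C26_REV-ERBa replicate 9, 2 without C26_GFP replicate 6 or the 5 deepest libraries, and 1 without C26_GFP replicate 4 or C26_REV-ERBa replicate 2. Prkaa2 came nearest, at 0.20 ± 0.06 (edgeR adjusted p = 0.0538), and was called by DESeq2 (adjusted p = 0.0347) and limma (0.0135). Of the other thioesterases and synthetases, 14 of 17 were tested, and 0 rose and 3 fell with tumour in GFP mice (Acot13, Them4 and Acsl6). That count ran from 0 to 4 when 1 library was left out, and was 0 without PBS_GFP replicate 1 or 4, C26_GFP replicate 1 or 10, or the 5 deepest libraries. Of 5 uncoupling and nucleotide carriers tested, Slc25a5 fell by 0.27 (edgeR adjusted p = 0.00252) and 0 rose by edgeR. Slc25a27 had a log2 fold change of 0.36 ± 0.17 (edgeR adjusted p = 0.111), was called higher by limma (0.38, adjusted p = 0.0360), and passed in edgeR without C26_GFP replicate 9 (adjusted p = 0.0440). Ucp1, the brown fat carrier, was not tested, and it was 0 in every C26_GFP and PBS_REV-ERBa heart.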

How the data were processed

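Hearts of 29 mice were profiled by RNA-seq. Libraries were made with a stranded kit from 50 to 100 ng of RNA, taken from some 200 mg of tissue, without poly(A) selection, and were read as pairs of 50 bp, per the labels' protocols. The authors deposited 1 table of raw counts for RefSeq genes. Tools listed in the submitters' processing notes are DESeq2 1.24.0 and STAR 2.4.2a, with mm10 as the build; no source used here names the counting tool or its strand setting. Of the per-sample columns, 1 matched no sample and was not used. Labels give separate animal numbers, so each library is 1 mouse.

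From the deposited counts, edgeR's filterByExpr (at a count of 10 and a total of 15) retained 12928 of 20411 genes, and TMM factors scaled the libraries. Group means were fitted in 1 quasi-likelihood model over 29 libraries with edgeR 4.0.16 in R 4.3.3, and p-values were Benjamini-Hochberg adjusted over all genes, with a threshold of 0.05. The fit was tested on simulated data. CPM use the TMM totals, and log2 CPM a prior count of 2. Alternatives included DESeq2 1.42.0, limma 3.58.1 voom, other scalings and filters, thinning, covariates, a replicate block and leaving out libraries. The smallest library, with 3207497 counts, limits precision at low levels, where Ucp3 had as few as 20 counts in a library; intervals of fold changes come from the spread between hearts.

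The genes and lists were chosen with earlier results of these data known. Genes named were the 8, up to 4 per list with the smallest p in C26_GFP over PBS_GFP or C26_REV-ERBa over C26_GFP, and the 5 most like Pdk4 and like Ucp2. Ppara, Pdk2, Pdp1 and Pdp2 were named after their values were seen, as was Ucp1. Some genes that the rule names are not reported here.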

Additional observations from a re-analysis of the deposited data

Results flagged for a closer look

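Ucp2 in C26_GFP replicate 6, at 34.3 CPM, stood apart from the other 9 hearts of its group. Its gap to the nearest heart was 0.473 of the group's range, just above Dixon's 95% critical value of 0.466. Of the 32 sets of 1 gene in 1 group, 1 stood apart in this way, and chance alone would give about 1 in 20. The same heart was the lowest of its group in 7 of the 8 genes and was sequenced to 14312672 counts. Without it the Ucp2 log2 fold change for C26_REV-ERBa over C26_GFP passed (-0.41, edgeR adjusted p = 0.0102). Whether depth or the piece of heart bears on this value was not tested.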

How the results depend on the processing

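Ucp2 and Acot1 passed as higher in C26_GFP over PBS_GFP hearts under each alternative run. Members called there (4) were 2 without the 5 libraries above 10000000 counts, and 3 to 5 leaving out 1 library; genes called (3642) were 1972 and 2790 to 4138. For C26_REV-ERBa over C26_GFP, genes called (931) were 1772 with voom, 291 with the replicate block, 327 fitting only the compared groups, and 295 to 1778 leaving out 1 library (1723 without C26_GFP replicate 6, 1778 without C26_REV-ERBa replicate 9, 295 without C26_REV-ERBa replicate 7). Members called there (1) were 2 with voom, without the 5 deepest libraries and with depth as a covariate, 0 with no filter, the replicate block, only the compared groups, without the atrial-high libraries and thinned, and 0 to 2 leaving out 1 library. The Acot1 adjusted p was 0.0510 with no filter, 0.110 with the block, 0.0836 with the compared groups, 0.0739 without the atrial-high libraries and 0.0527 thinned. For PBS_REV-ERBa over PBS_GFP, 1 gene was called by DESeq2, by voom and with only the compared groups. For C26_REV-ERBa over PBS_REV-ERBa, genes called were 450 with the block and 476 to 1201 leaving out 1 library, and members called (1) were 2 with DESeq2, without the deepest libraries and thinned, 0 without the atrial-high libraries, and 1 to 2 leaving out 1 library. The interaction had 9 genes with DESeq2 and 4 with voom.

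The following signs turned. Ucp3 in C26_GFP over PBS_GFP hearts was 0.00908 with the block. In C26_REV-ERBa over C26_GFP hearts, Cpt1a was 0.00764 with upper-quartile scaling, 0.0130 with voom, 0.0647 with the block, 0.0779 without atrial-high libraries, 0.00752 with an adipocyte covariate and -0.0930 to 0.0600 leaving out 1 library. Slc25a5 was -0.00405 without atrial-high libraries and -0.0174 thinned, Slc25a27 0.00180 with upper-quartile scaling and 0.0528 thinned, and Slc25a30 0.0759 thinned; leaving out 1 library gave -0.00699 to 0.0449 for Slc25a5 and -0.0732 to 0.0465 for Slc25a27. Ucp3 in PBS_REV-ERBa over PBS_GFP hearts was -0.0427 with depth as a covariate and -0.0542 to 0.334 leaving out 1 library. The r of Ucp2 with Cpt1b was -0.0854 without the 2 farthest hearts and -0.193 without the deepest libraries. The cause was not tested.

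No pairing of samples by replicate number was seen. Over 32 same-numbered pairs the correlation of deviations ran from -0.346 to 0.284, and 4 of 32 correlated best with their own number. Whether same-numbered hearts shared a litter, cage or day was not tested.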
